A study of Arabidopsis thaliana with 11 samples.

Results

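AT3G15450, AT2G20670 and AT3G07350 are 3 nuclear genes of Arabidopsis thaliana with some of the largest rises in signal from diploid to tetraploid seedlings. By log2 difference these genes ranked 25, 41 and 65 among the 15075 probe sets that passed a signal filter. They were chosen by locus and read through 1 probe set each, 3 of the 22746 plant probe sets on the Affymetrix ATH1 array. Each gene had 1 probe set named for it, and each was above its array's percentile 40 on all 11 arrays. Because the choice rested on the step from diploid to tetraploid, the members' levels against diploids are given as descriptions with no test.

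AT3G15450 encodes a protein of a small plant family named for its YGL and LRDR motifs, first described as induced by aluminium, and its transcript is known to accumulate in darkness and under sugar starvation. AT2G20670 and AT3G07350 belong to a plant family that shares the domain DUF506, a nuclease-like fold (PD-(D/E)XK) of unknown function. In starved plant cells the kinase SnRK1 senses low energy and switches on genes for the breakdown of amino acids, lipids and starch, and AT3G15450 has served as a marker of that response.

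Whole seedlings of the ecotype C24 were sampled at developmental stage 1.02 after growth on agar with Murashige and Skoog salts, with a 16 h day at 21 °C and an 8 h night at 18 °C, following 72 h at 4 °C on the plate. The groups were diploids (2 arrays, 2 chromosome sets), triploids with the title code TFE (3 arrays), triploids with the title code TME (3 arrays) and tetraploids (3 arrays, 4 chromosome sets). All carried the same stock code, the tetraploids had been made with colchicine, and both kinds of triploid (3 chromosome sets) came from crossing tetraploid and diploid plants, in a direction the labels do not state. Array titles are numbered in blocks by group, so handling order and group cannot be told apart. How many plants or lines stand behind an array is not given, and nothing says that replicates were sown separately, so a p-value here covers the spread among arrays, technical or not.

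The arrays had been scaled to a common mean, so each value is a level relative to the rest of the same array, and a change in total RNA per cell is not visible. Triploid TFE replicate 3 stood apart, with rank correlations of 0.861 to 0.88 with the other arrays against 0.942 to 0.973 among the other 10. Results that rest on it are given with and without it. Both leaf markers with a probe set were bright in every group, with RCA (Rubisco activase) between a mean of 5010 and 6405 and LHCB4.1, a light-harvesting protein, between 4885 and 5912. The root beta-glucosidase PYK10 had group means of 2938 to 3460, so shoot and root transcripts were both measured. In whole seedlings a larger share of cells that express a gene and more of its RNA per cell cannot be told apart.

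AT3G15450 was higher with each step in the order diploid, triploid TFE, triploid TME, tetraploid. Its signal was 140.04 and 162.09 on the diploid arrays, 208.47, 279.93 and 235.54 in triploid TFE, 283.89, 371.82 and 338.29 in triploid TME, and 530.65, 482.53 and 803.49 in tetraploids. No array of a group overlapped with an array of the next group, although the highest TFE and the lowest TME array nearly met. The tetraploid mean of 605.6 ± 173.1 (SD, n = 3) was 3.92-fold the diploid mean of 151.1 ± 15.59 (SD, n = 2) on the log2 scale of the fit, a log2 difference of 1.97 ± 0.20 (SE). The spread was widest in tetraploids, where replicate 3 was 1.67-fold the lowest array, and without replicate 3 the log2 difference was 1.75. The step from diploid to TFE was 0.67 ± 0.20, from diploid to TME 1.13 ± 0.20, and from TME to tetraploid 0.84 ± 0.18, with 95% intervals of 0.24 to 1.10, 0.70 to 1.55 and 0.46 to 1.22.

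AT2G20670 was higher in triploid TME and in tetraploids than in diploids, while the TFE arrays spanned the diploid level. Its signal was 94.743 and 130.43 in diploids, 165.82, 164.04 and 61.258 in TFE, 215.02, 313.56 and 336.01 in TME, and 380.18, 377.61 and 448.54 in tetraploids. TFE replicate 3 had the lowest signal of all 11 arrays, and the other TFE arrays were above both diploids. Tetraploids had a mean of 402.1 ± 40.23 (SD, n = 3) and diploids one of 112.6 ± 25.24 (SD, n = 2). The log2 difference was 1.85 ± 0.34 (SE), or 3.61-fold. The TME difference was 1.35 ± 0.34, and the last step from TME to tetraploid was 0.50 ± 0.30 with a 95% interval of -0.14 to 1.15, while the arrays of both groups did not overlap. The SE of that step was 0.16 without TFE replicate 3 and 0.15 in a fit of only the arrays compared, against 0.30 in the fit over all arrays. For TFE the difference was 0.09 ± 0.34 over all arrays and 0.57 ± 0.20 without replicate 3, when the TFE mean was 164.9 ± 1.264 (SD, n = 2).

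AT3G07350 followed the same order with the smallest tetraploid difference of the 3. Its signal was 102.83 and 126.26 in diploids, 135.42, 128.25 and 147.54 in TFE, 213.81, 278.49 and 250.4 in TME, and 279.06, 329.44 and 418.24 in tetraploids. Diploid and TFE arrays nearly met, as did TME and tetraploid arrays, whereas a wide gap separated TFE from TME. Tetraploids had a mean of 342.2 ± 70.47 (SD, n = 3) and diploids one of 114.5 ± 16.57 (SD, n = 2). The log2 difference was 1.57 ± 0.18 (SE), or 2.96-fold. TME differed from diploids by 1.11 ± 0.18, and TFE by 0.26 ± 0.18 with a 95% interval of -0.11 to 0.64. The step from TME to tetraploid was 0.46 ± 0.16 (95% interval 0.12 to 0.79).

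**Figure D1:**
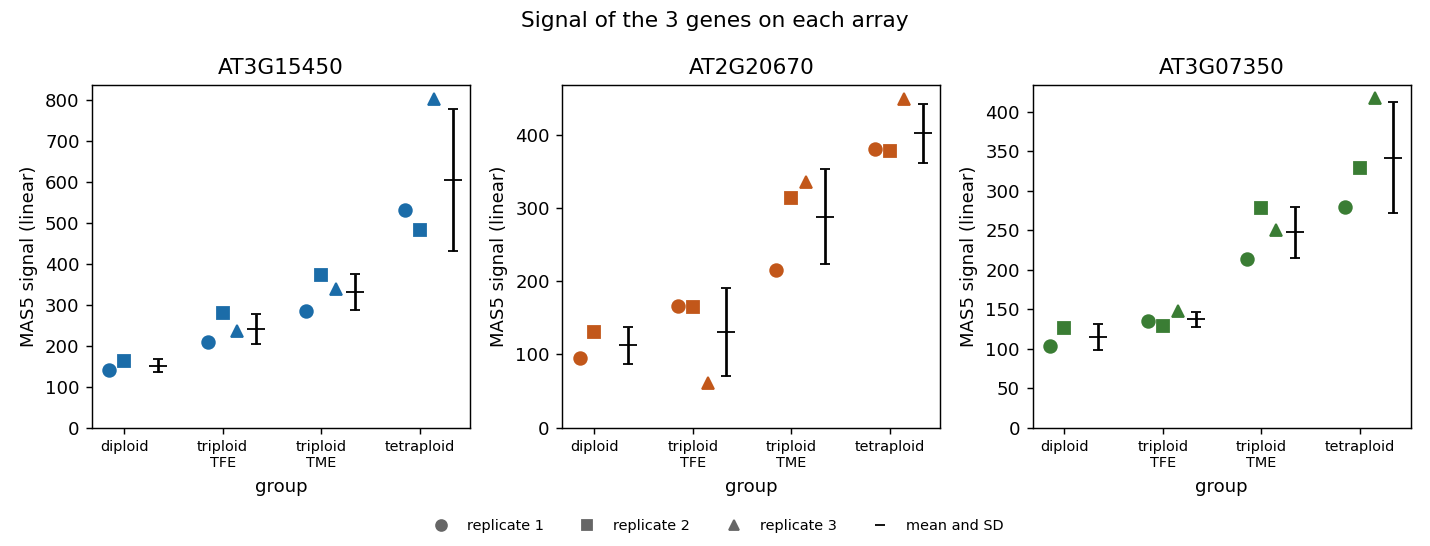
Linear MAS5 signal (y axis of each panel, starting at 0) of AT3G15450, AT2G20670 and AT3G07350 by group, with 1 point per array and the marker showing the replicate; black bars give the group mean and SD. Every tetraploid array lies above every diploid array in each panel, and AT2G20670 drops to 61.258 on triploid TFE replicate 3.

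For all 3 genes every tetraploid array and every TME array was above both diploid arrays. Over all 15075 probe sets kept, 15.9% were higher without overlap in tetraploids and 12.5% in TME; nothing is read from the members' count here, since the genes were chosen on the first of these contrasts and the second shares its diploid arrays. With the call rule of limma at an adjusted p under 0.05, 0.597% of the probe sets kept were higher in tetraploids than in diploids and 0.232% were lower. All 3 genes also had every tetraploid array above every TME array and above every TFE array, as had 8.03% and 8.5% of the probe sets kept; the choice for high tetraploid arrays favours this, so nothing is read from it either. AT3G15450 and AT3G07350, but not AT2G20670, had every TFE array above both diploids, as had 11.9%. Of the tetraploid log2 difference, TME had reached 57.3% for AT3G15450, 72.8% for AT2G20670 and 70.9% for AT3G07350. TFE had reached 34%, 5.02% and 16.9%, and without TFE replicate 3 it had reached 34.6%, 30.8% and 13.4%. These comparisons share the diploid arrays.

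**Figure D2:**
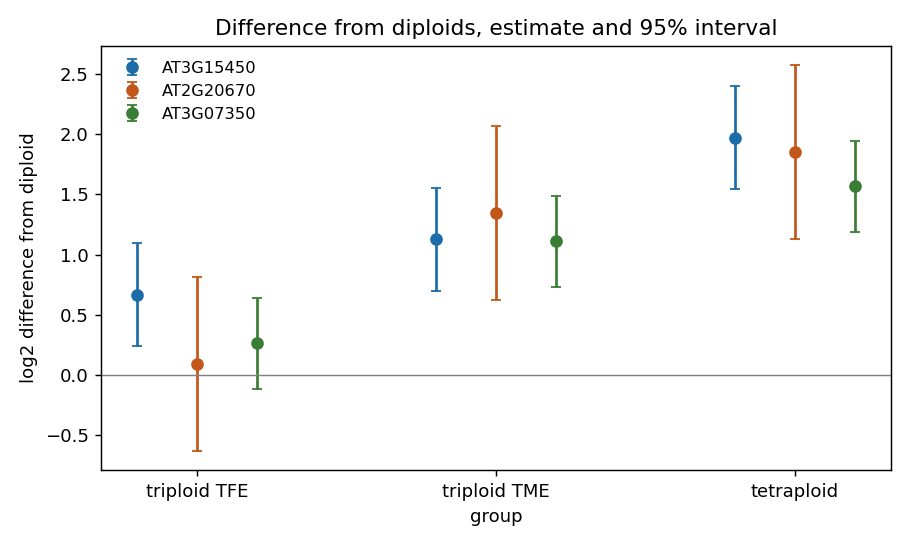
Log2 difference from the diploid mean (y axis) for triploid TFE, triploid TME and tetraploid seedlings (x axis), with 1 point per gene and bars for the 95% interval of the limma fit. The intervals describe precision and carry no test, since the genes were chosen on the tetraploid contrast and all differences share the diploid arrays; estimates run from 0.09 (AT2G20670, TFE) to 1.97 (AT3G15450, tetraploid).

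The difference between the triploids sets no diploid or tetraploid value against another, although the fit takes its spread from all 11 arrays. It asks whether seedlings with the same number of chromosome sets had the same level. All 3 genes were lower in TFE than in TME, with no overlap between arrays, a pattern shown by 6.82% of the probe sets kept. The log2 difference, TFE minus TME, was -0.85 ± 0.16 (SE) for AT3G07350, with means of 137.1 ± 9.747 and 247.6 ± 32.44 (SD, n = 3 each; limma, adjusted p = 0.169). It was -1.26 ± 0.30 for AT2G20670 (means 130.4 ± 59.86 and 288.2 ± 64.36; limma, adjusted p = 0.326) and -0.46 ± 0.18 for AT3G15450 (means 241.3 ± 36.08 and 331.3 ± 44.38; limma, adjusted p = 0.432). None passed the threshold over the whole table, where 0.0265% of the probe sets were called in either direction. The unadjusted limma p-values were 8.99e-05, 0.000914 and 0.0216. The spread in this fit comes partly from the diploid and tetraploid arrays on which the genes were chosen. Choice for a clear rise can favour a small spread, so these limma p-values may be too small. The exact two-sided permutation test of 3 against 3 arrays gave p = 0.1 for each gene, the smallest it allows. Without TFE replicate 3 the differences were -0.90 for AT3G07350, -0.78 for AT2G20670 and -0.45 for AT3G15450 (limma, adjusted p = 0.128, 0.344 and 0.664), so the size for AT2G20670 depends on that array. With weights for array quality AT3G07350 passed, at -0.92 (limma, adjusted p = 0.0368). In a fit of only the triploid arrays the adjusted p was 0.38 for AT3G07350 and 0.669 for each of the others (limma).

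The mean of both triploids minus the midpoint of diploid and tetraploid, on the log2 scale, sets odd against even ploidy. Because the midpoint is built from the arrays on which the genes were chosen, the values are a description with no test. The difference was -0.09 ± 0.13 (SE) for AT3G15450, -0.20 ± 0.23 for AT2G20670 and -0.10 ± 0.12 for AT3G07350. It turned to 0.03 for AT2G20670 without TFE replicate 3 and to 0.03 for AT3G15450 without tetraploid replicate 3. No probe set kept (0%) was called in this contrast by limma's adjusted p, and 813 had an unadjusted p under 0.05. On the log2 scale TME alone lay nearer the tetraploid and TFE nearer the diploid level for each gene. For AT3G15450 this depended on the scale. Its linear TME mean of 331.3 lay nearer the diploid mean of 151.1 than the tetraploid mean of 605.6.

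Within 3 of the groups the members shared an extreme array. In tetraploids replicate 3 was the highest array for each gene, in TME replicate 1 was the lowest, and of the diploids replicate 2 was the higher, whereas in TFE the genes differed in their order. With 2 or 3 arrays in a group such sharing is easily met. Its share over all probe sets is not given here, so nothing is read from it. Over the 11 arrays the log2 signals of AT3G15450 and AT3G07350 had r = 0.94 and rho = 0.964, those of AT3G15450 and AT2G20670 r = 0.835 and rho = 0.918, and those of AT2G20670 and AT3G07350 r = 0.873 and rho = 0.891. With group means removed r was 0.703, 0.332 and 0.137, and without TFE replicate 3 it was 0.735, 0.627 and 0.761. On that array AT2G20670 lay 0.95 below its TFE mean on the log2 scale while AT3G07350 lay 0.11 above its own. These correlations are descriptions over arrays that share a scaling, and they carry no test.

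Measures of the array and of RNA quality are set beside these levels. The ratio of actin signals, for the first of the array's actin control sets, at the 3-prime and 5-prime ends was 0.506 and 0.524 in diploids, 0.559 to 0.92 in TFE, 0.407 to 0.539 in TME and 0.308 to 0.403 in tetraploids. Tetraploid replicate 3, with the highest signal of each member, had the lowest ratio, 0.308, and TME replicate 1, with the lowest TME signals, had the highest TME ratio, 0.539. A second actin set did not follow this order: its ratio was 1.54, 2.3 and 1.91 in tetraploid replicates 1, 2 and 3, and 2.87, 2.95 and 2.92 in TME. The part of these ratios in the result was not tested. The same ratio for GAPDH overlapped between all groups (0.87 to 1.15). The geometric mean of the spiked-in hybridisation controls was 157 and 321 in diploids, 372 to 627 in TFE, 272 to 425 in TME and 242 to 257 in tetraploids. With this level in the fit the tetraploid log2 differences of AT3G15450, AT2G20670 and AT3G07350 were 1.95, 1.90 and 1.56, against 1.97, 1.85 and 1.57 without it. The TFE difference from diploids, where the control level was highest, became 0.51, 0.48 and 0.20 in place of 0.67, 0.09 and 0.26. Its SE became 0.33 for AT3G15450 and 0.55 for AT2G20670, in place of 0.20 and 0.34. The control levels of TFE did not overlap those of diploids or tetraploids, so this fit separates level and group poorly. TFE minus TME became -0.54, -1.04 and -0.88, with a limma adjusted p of 1 for each gene.

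Markers of the seedlings' organs are set beside the members' levels as well. Of 10 root markers 3 had a probe set, and none was at the floor on any array. Their summed signal was 2729 and 3275 in diploids, 3087 to 4150 in TFE, 3135 to 3486 in TME and 3274 to 3749 in tetraploids, most of it from PYK10. EXPA18, an expansin of root hairs, had a mean of 34.63 ± 3.357 (SD, n = 2) in diploids. Its means were 45.62 ± 17.6 in TFE, 55.96 ± 8.366 in TME and 73.47 ± 11.85 in tetraploids (SD, n = 3 each), with 27.39 on TFE replicate 3. Its tetraploid log2 difference from diploids was 1.07 ± 0.31, which missed the threshold (limma, adjusted p = 0.183). It passed without TFE replicate 3, with array weights and in a fit of only the arrays compared. The root hair expansin EXPA7 had 0.61 ± 0.52 and PYK10 0.21 ± 0.14 (limma, adjusted p = 0.87 and 0.768). Of 10 leaf markers 2 had a probe set, with a summed signal of 8589 and 11790 in diploids, 11120 to 13000 in TFE, 10080 to 11870 in TME and 9714 to 11030 in tetraploids. The part of organ shares in the members' levels was not tested.

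Among relatives of AT2G20670 and AT3G07350, 4 of the other 11 DUF506 genes had a probe set and passed the filter. In tetraploids 1 of the 4 rose and 1 fell against diploids (limma, adjusted p under 0.05), where 0.829% of all probe sets kept were called in either direction. AT2G38820 rose: its signal was 62.74 and 68.08 in diploids, 79.92, 98.01 and 102.9 in TFE, 85.44, 97.24 and 97.89 in TME, and 138.9, 139 and 146.7 in tetraploids. Its groups were separate except for the triploids, which overlapped. Over all probe sets kept, 15.9% were higher in tetraploids than in diploids without overlap. The tetraploid log2 difference of AT2G38820 was 1.11 ± 0.16 (SE; limma, adjusted p = 0.00398). Without diploid replicate 1 or 2 the adjusted p was 0.071 or 0.0505. Between triploid codes AT2G38820 had a difference of -0.004 ± 0.147 (limma, adjusted p = 0.994), against -1.26 and -0.85 for the members of its family.

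AT1G12030 fell, from 75.95 and 74.4 in diploids to 37.73, 29.49 and 34.5 in TFE, 43.37, 39.73 and 47.37 in TME, and 26.02, 31.68 and 39.49 in tetraploids. All polyploid arrays were below both diploid arrays. The share of all probe sets lower than diploids without overlap is not given here, so nothing is read from this separation. In the higher direction 15.9% of the probe sets kept were separate in tetraploids, 12.5% in TME and 11.9% in TFE. The tetraploid difference was -1.24 ± 0.26 on the log2 scale (limma, adjusted p = 0.0418), and the call was lost in 5 of 12 other settings and without any 1 of 8 of the 11 arrays (adjusted p up to 0.355). The triploid differences of AT1G12030 were -1.16 ± 0.26 in TFE and -0.79 ± 0.26 in TME and did not pass (limma, adjusted p = 0.282 and 0.703). AT3G22970 had 0.44 ± 0.24 and AT2G39650 0.32 ± 0.27 in tetraploids, neither past the threshold (adjusted p = 0.684 and 0.869). The median over the 4 was 0.38 in tetraploids, 0.34 in TME and 0.27 in TFE, beside 0.0069, -0.0032 and 0.0026 over all probe sets kept.

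Among relatives of AT3G15450, all of the other 4 genes of the YGL and LRDR family were measured, and none was called in tetraploids (limma; 1 of 4 at an unadjusted p under 0.05). Over all probe sets kept 0.829% were called in that comparison and 8.42% had an unadjusted p under 0.05. AILP1 (AT5G19140), the family's aluminium-induced protein, had a signal of 1091 and 1110 in diploids, 1172, 1155 and 1117 in TFE, 1135, 1231 and 1187 in TME, and 1364, 1275 and 1731 in tetraploids. Every polyploid array was above both diploids, and tetraploid replicate 3 was again the highest. Over all probe sets kept, 15.9% were higher than diploids without overlap in tetraploids, 12.5% in TME and 11.9% in TFE. The tetraploid log2 difference of AILP1 was 0.39 ± 0.12 (limma, adjusted p = 0.267). AT4G27450 had 0.25 ± 0.17, AT5G43830 0.09 ± 0.10 and AT3G22850 0.05 ± 0.14 (limma, adjusted p = 0.791, 0.927 and 0.98). The family median without AT3G15450 was 0.17 in tetraploids, 0.05 in TME and -0.03 in TFE.

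**Figure D3:**
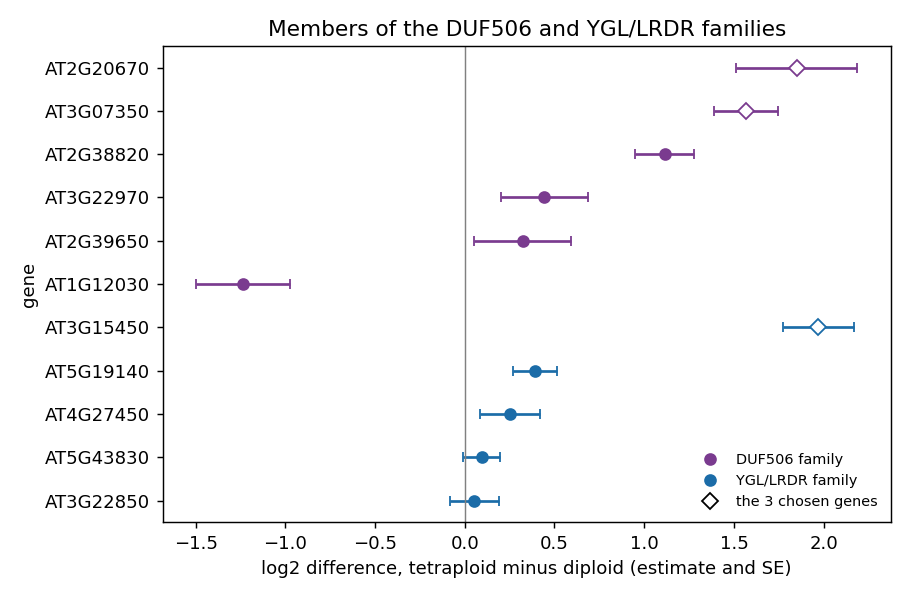
Log2 difference between tetraploid and diploid seedlings (x axis, estimate with SE) for the measured genes of the DUF506 family and of the YGL and LRDR family (y axis). Open diamonds are the 3 chosen genes; AT2G38820 (1.11) and AT1G12030 (-1.24) lie on opposite sides of 0, and the YGL and LRDR relatives lie between 0.05 and 0.39.

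Few of the genes known to respond to sugar starvation could be read, and none of these passed the test. Of 32 such genes 8 had a probe set, and apart from AT3G15450 none of 7 was called in tetraploids against diploids (limma; 0 of 7 at an unadjusted p under 0.05), beside 0.829% and 8.42% of all probe sets kept. In that comparison 4 were higher and 3 lower, with a median of 0.03. MCCA and MCCB, the subunits of 3-methylcrotonyl-CoA carboxylase in leucine breakdown, had 0.74 ± 0.52 and 0.15 ± 0.22, and the dehydrogenase IVD of the same pathway had -0.06 ± 0.58 (limma, adjusted p = 0.81, 0.961 and 0.995). PPDK, pyruvate orthophosphate dikinase, had -0.58 ± 0.30 and the autophagy gene ATG8E -0.04 ± 0.19 (adjusted p = 0.664 and 0.987). The electron carrier ETFQO had 0.03 ± 0.21 and D2HGDH, which oxidises D-2-hydroxyglutarate, 0.03 ± 0.17. None was called by limma in TME or TFE against diploids, where 0.126% and 0% of all probe sets kept were (0 and 1 of the 7 at an unadjusted p under 0.05; medians -0.04 and -0.16). For TFE minus TME, 6 of the 7 were lower and 1 higher, with a median of -0.14. In that comparison 0 were called by limma, beside 0.0265% of all probe sets kept. At an unadjusted limma p under 0.05 there were 2 of the 7, beside 10.6%. Classic markers of the response such as ASN1 and SEN1 had no named probe set here and were not analysed.

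The regulators of the energy response were also read in part. Of 13 genes for the SnRK1 kinase and its partner factors 6 had a probe set and none was called in tetraploids (limma; 1 of 6 at an unadjusted p under 0.05; median 0.09), beside the same 0.829% and 8.42% of all probe sets kept. The 1 gene was AT1G78020 (FLZ6), named after its values were seen, of a zinc-finger family whose proteins bind SnRK1, with -0.54 ± 0.17 in tetraploids and -0.54 ± 0.17 in TME (limma, adjusted p = 0.24 and 0.55). Another listed gene of that family, AT5G11460 (FLZ10), had 0.08 ± 0.36 in tetraploids and -0.25 ± 0.36 in TME (limma, adjusted p = 0.988 and 0.999). AKINBETA1, a regulatory subunit of SnRK1, had 0.50 ± 0.29, the subunit gene AT4G16360 (KINbeta2) 0.10 ± 0.20, and the leucine-zipper factors BZIP53 and bZIP44 0.16 ± 0.14 and -0.48 ± 0.28 (limma, adjusted p = 0.711, 0.973, 0.872 and 0.726). Of 10 sugar-induced genes APL3, a subunit of ADP-glucose pyrophosphorylase in starch synthesis, had -0.46 ± 0.30 and DFR of anthocyanin synthesis -0.32 ± 0.24 (adjusted p = 0.785 and 0.838). Of 18 clock genes only GI had a named probe set, with 0.26 ± 0.18 (adjusted p = 0.803). The Arabidopsis annotation used named 13513 of 22746 plant probe sets with 1 gene, so these lists were measured in part.

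Among probe sets with 1 gene, those whose log2 signal over the 11 arrays was most like that of AT3G15450, AT2G20670 and AT3G07350, by the mean of 3 Pearson correlations, were AT3G19030, AT5G60680, AR781, AT1G68670, SIS, AT1G25550, AT4G05070, AT4G14270, AT3G10020 and AT1G49500, with a mean r of 0.942 down to 0.902. Over all 15072 other probe sets kept the median of this mean r was 0.00029 and percentile 99 was 0.782. AT3G19030 had 256.4 and 277.7 in diploids, 372.3, 387.6 and 321.9 in TFE, 522.4, 646.9 and 606.4 in TME, and 668.2, 743 and 778.4 in tetraploids. Its groups did not overlap, but likeness to the members favours this. The share of all probe sets with every group separate is not given here, so nothing is read from it. AT5G60680, an S40-like gene, had group means of 223 in diploids, 315 in TFE, 461 in TME and 675 in tetraploids, in the order of the members. AT1G25550 and AT1G68670, GARP transcription factors of the HRS1 family, which in Arabidopsis is linked to nitrate and phosphate signalling, had 206, 244, 325 and 379, and 185, 202, 222 and 265, in the same group order. SIS, a serine-rich protein induced by salt, had 13.67 and 14.28 in diploids and 73.52, 52.34 and 89.77 in tetraploids. Its diploid signals were below percentile 40 of their arrays (26.4 and 27.4), as were those on TFE replicates 1 and 3 (25.4 and 11.41). It passed the filter through the other arrays, so the size of its difference is uncertain. AR781 and AT4G05070 reached 105 ± 20.5 and 426 ± 103 (SD, n = 3) in tetraploids from 33.8 ± 0.608 and 198 ± 20.1 (SD, n = 2) in diploids. AT4G14270, AT3G10020 and AT1G49500 went from means of 377, 93.6 and 789 in diploids to 624, 192 and 1280 in tetraploids. Likeness to genes chosen for a high tetraploid level selects for the same, so no test of these differences is given.

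By single gene the order changed. AT3G15450 was most like AT5G60680 (r = 0.964), AT1G68670 (r = 0.958), AT2G32150 (r = 0.951), AR781 (r = 0.949) and AT1G25550 (r = 0.943). AT3G07350 was most like AT3G19030 (r = 0.967), AT1G25550 (r = 0.958), AT1G49500 (r = 0.952), AR781 (r = 0.947) and AT5G60680 (r = 0.944). AT2G20670 had other partners: AT1G23390, a kelch-repeat F-box gene, with r = 0.977, then SIS, AT3G10020, PWD and AT5G19120 with 0.958, 0.949, 0.942 and 0.941. PWD is phosphoglucan, water dikinase of starch breakdown. AT1G23390 shared the dip on TFE replicate 3, with 393.3 there against 718.8 and 688.9 on the other TFE arrays. With group means removed its r with AT2G20670 was 0.937, a value that includes this shared dip. The same r without that array is not given here.

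Without TFE replicate 3, an alternative chosen after seeing the data, the list for AT2G20670 held 1 of the same 5 genes, while those for AT3G15450 and AT3G07350 held 3 of 5 each and the list for the mean of the members 8 of 10. AT2G20670 was then most like AT5G60680 (r = 0.985) and AT3G19030 (r = 0.983), and AT1G23390 had r = 0.961. AT3G17130, which had r = 0.231 with AT2G20670 over 11 arrays, had r = 0.955 over the 10. The DUF506 relative AT2G38820 was then the gene second most like AT3G15450 (r = 0.968, against 0.942 over all arrays). The AT2G20670 list over 11 arrays therefore depends on triploid TFE replicate 3.

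**Figure D4:**
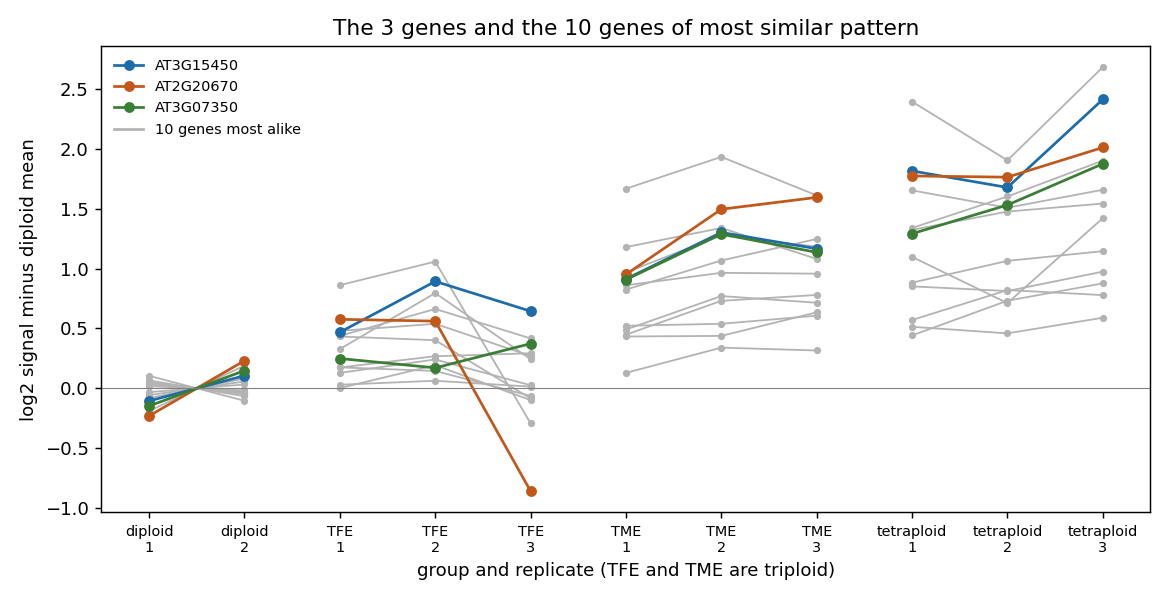
Log2 signal minus the diploid mean of the same gene (y axis) on each array, by group and replicate (x axis), for the 3 genes in colour and for the 10 genes of most similar pattern in grey; lines join arrays of 1 group only. The group mean of each of the 13 genes is highest in tetraploids, and AT2G20670 lies at -0.86 on triploid TFE replicate 3.

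None of the measured neighbours of the members on the chromosome was called in tetraploids against diploids. Over all probe sets kept 0.829% were called in that comparison, so nothing is read from this count. Of the 10 nearest protein-coding neighbours of AT3G15450 in the TAIR10.1 gene table, 6 were measured above the filter, and their tetraploid log2 differences ran from -0.20 to 0.41, with 0 called (limma). The next gene on one side, AT3G15460, had -0.17 (limma, adjusted p = 0.896). For AT2G20670 3 neighbours were measured, from -0.08 to 0.09, and for AT3G07350 5, from -0.15 to 0.46, again with 0 called. All lay below the members' 1.57 to 1.97, but the members were chosen on this contrast. Coordinates are left out, as no source names the build of the array's annotation.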

How the data were processed

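Affymetrix ATH1 arrays of 11 seedling samples were used. The deposited values are MAS5 signals, a linear intensity for each probe set; the submitters' processing notes name MAS5 without a version, and no source names a genome build. Each array's mean, trimmed by 2% at each end, was 100.01. The number of arrays limits the precision; no detection calls or scanner files were used here.

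Of 22810 probe sets, 64 controls were set aside. Signals were floored at percentile 10 of all plant values (2.279), converted to log2, and kept above percentile 40 of their array on at least 2 arrays (15075, 66.3%). limma 3.58.1 in R 4.3.3 fitted group means over all 11 arrays with an intensity trend; adjusted p-values are 2-sided, Benjamini-Hochberg over all probe sets kept, called under 0.05. SE and intervals come from this fit. On simulated data with independent noise its mean estimates were checked against planted changes, but the SE and intervals were not checked. Differences are on the log2 scale.

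Genes were named through the platform annotation and the TAIR10.1 gene table (13436 of 13513 matched). The members and gene lists were chosen with earlier results of these data known. Named were all measured relatives; of other lists called members and the first 4 measured; and the 5 genes most like each member and the 10 most like all. The remaining sugar starvation genes, AT1G78020, AT5G11460, AT3G15460, AT3G17130 and the likeness of AT2G38820 were added after their values were seen. Seed storage markers, 8 in all, had 0 named probe sets. Replicate numbers were not taken as a pairing in the main fit. The midpoint contrast, planned as a test, is given without one for the members. Alternatives were scaling, floor, pseudocount, filter, variance model, weights, arrays in the fit, replicate block, control level and each array left out.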

Additional observations from a re-analysis of the deposited data

How the results depend on the processing

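With each of the 11 arrays left out, the tetraploid difference ran from 1.75 to 2.12 for AT3G15450, 1.62 to 2.08 for AT2G20670 and 1.41 to 1.72 for AT3G07350. Its sign is fixed by the choice of the genes. In 12 other settings and with arrays left out, some smaller values moved. The midpoint contrast changed sign for AT2G20670 with array weights (0.007), with the control level in the fit (0.057) and without TFE replicate 3 (0.033), its range with arrays left out being -0.33 to 0.03. It changed sign for AT3G15450 without tetraploid replicate 3 (0.025, range -0.16 to 0.03). A fit of only the arrays compared gives no other midpoint value, since that contrast uses all groups. TFE minus TME was called once, for AT3G07350 with array weights (-0.92).

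Counts of calls over all probe sets moved more. Tetraploid against diploid, the 125 calls became 78 with no filter, 42 with no intensity trend, 271 with array weights and 198 with only the arrays compared, and 29 to 253 with an array left out. TME against diploid, the 19 became 4 (quantile), 3 (no filter), 1 (no trend), 89 (weights), 60 (arrays compared), 11 (replicate block) and 3 (control level), and 2 to 57 with an array left out. TFE against diploid, 0 became 2 (quantile), 2 (pseudocount of 16), 3 (robust) and 6 (weights), and 0 to 6. Tetraploid against TME, 0 became 4 (weights) and 1 (arrays compared), and 0 to 2. Tetraploid against TFE, 71 became 20 (no filter), 3 (no trend), 19 (arrays compared) and 0 (control level), and 13 to 127. TFE against TME, 4 became 0 (quantile, no filter, no trend, arrays compared, replicate block, control level) and 7 (weights), and 0 to 6. The midpoint count of 0 went to 1 at most with an array left out. The 2 calls among DUF506 relatives became 1 with quantile normalization, no filter, the stricter filter, the replicate block and the control level, and 0 to 2 with an array left out. The call lost was AT1G12030 in each of these 5 settings; without diploid replicate 1 or 2 both were lost. Among root markers 0 became 1 (EXPA18) with array weights, with only the arrays compared and in 1 left-out case, without TFE replicate 3. The causes of these changes in count were not tested.

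Same-numbered arrays deviated together little, with r from -0.19 to 0.14 over 15 pairs. The median r was 0.025 for the same number and -0.017 for other numbers, and 3 of 11 arrays correlated best with their own number. The labels do not state whether same-numbered arrays shared a sowing or batch, and this was not tested. With the replicate block the tetraploid differences were 1.89, 1.94 and 1.49 for AT3G15450, AT2G20670 and AT3G07350.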
